A study of Mus musculus with 50 samples.

Results

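The genes described here encode the transcription factor NRF2 (Nfe2l2), its relative NRF1 (Nfe2l1), its repressor KEAP1 (Keap1), the ubiquitin ligase scaffold CUL3 (Cul3), the competing repressor BACH1 (Bach1) and the small MAF proteins MAFG, MAFK and MAFF (Mafg, Mafk and Maff). They were chosen by symbol for what they do in this pathway, with earlier results of these data known. All 8 were found among the 39056 gene entries of the count table. Their mRNA was measured by RNA-seq of total RNA from developing mouse oligodendrocytes in culture, in 50 libraries and 20 groups. The cells were Nrf2 -/- (homozygous null) or wild-type, both from C57BL/6 mice. In either genotype there were cells with IFN-γ, a cytokine of T and NK cells, at 200 U/ml and harvested at 1, 8, 24 or 48 h. Others had thapsigargin, which blocks the calcium pump of the endoplasmic reticulum and so causes stress there, with harvests at 1 or 8 h, and untreated cells were taken at 1, 8, 24 and 48 h. The labels give the thapsigargin dose as 200 uM, which is far above the doses usual in cell culture and is in doubt, since the unit could not be checked here. Each Nrf2 -/- group held 3 libraries and each wild-type group 2; the design text speaks of 4 mutant replicates per time point, and any further ones were not analysed here. All groups came from oligodendrocyte progenitors immunopanned from the cortices of 6-day-old pups, expanded through 2 passages and differentiated over 12 to 14 h prior to the agents, although the tissue tag reads whole brain. The null allele is not described further in the labels, nor is the sex of the pups.

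NRF2 is made all the time and is destroyed almost at once, because KEAP1 holds it against CUL3, which marks it for the proteasome. Oxidants and electrophiles modify KEAP1, NRF2 then enters the nucleus, pairs with a small MAF protein and binds antioxidant response elements beside detoxification and glutathione genes, where BACH1 otherwise sits with the same small MAF partners. NRF1 shares the small MAF partners but is anchored in the endoplasmic reticulum, and after processing it drives proteasome subunit genes. Small MAF proteins lack an activation domain, so pairs of them alone repress. Oligodendrocytes carry much iron and lipid synthesis and are known to be sensitive to oxidative stress and to IFN-γ while they differentiate.

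The stretches before the transcription starts are shown because the pathway feeds back on its own genes and because Nfe2l1 has 2 clusters of starts that are compared below. RefSeq (GRCm38.p6) held windows of 300 bases, 250 before and 50 after a start, for all 8 genes, 14 windows in all. The core of the antioxidant response element was searched as TGACNNNGC on both strands, and 12.4% of the 32851 windows of all genes held it. It lay before Nfe2l2 (chr2:75704664-75704913, minus strand, bases -240 to -232), Mafg (chr11:120633548-120633797, minus strand, -222 to -214), Mafk (chr5:139791286-139791535, plus strand, -13 to -5) and the most upstream of 3 Maff starts (chr15:79346371-79346620, plus strand, -112 to -104). No window of Keap1, Cul3, Bach1 or Nfe2l1 held these letters. The C/EBP-ATF core TGATGNAA (3.97% of all windows) and the full ER stress element (0.119%) were in no window of the 8 genes. After the windows had been seen, CCAAT boxes were counted too, as CCAAT or its reverse complement ATTGG. Nfe2l1 has 5 windows. Of the 2 upstream ones, that of Nfe2l1-201 (chr11:96829969-96830218, minus strand) had 4 boxes, a number reached by 1.06% of windows, and that of the start at 96829502 had 0. The 3 downstream ones had 6, 4 and 2, reached by 0.0791%, 1.06% and 11.7% of windows. Those 3 windows overlap, and the boxes counted as 4 and 2 are all among the 6. Their shares are therefore not separate observations. The richest window of each cluster is shown, for the downstream one chr11:96824128-96824377 (minus strand), where 5 of the 6 boxes lie in the stretch printed. The letters are a description and say nothing of binding. Capitals mark the antioxidant response element core in the first 4 sequences and CCAAT boxes in the last 2, all written 5′ to 3′ on the gene's strand and covering the 250 bases before the start:
Nfe2l2: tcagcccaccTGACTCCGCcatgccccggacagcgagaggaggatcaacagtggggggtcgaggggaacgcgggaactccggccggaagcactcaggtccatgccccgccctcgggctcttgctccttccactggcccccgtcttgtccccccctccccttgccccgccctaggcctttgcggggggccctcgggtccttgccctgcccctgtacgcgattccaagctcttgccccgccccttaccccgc
Mafg: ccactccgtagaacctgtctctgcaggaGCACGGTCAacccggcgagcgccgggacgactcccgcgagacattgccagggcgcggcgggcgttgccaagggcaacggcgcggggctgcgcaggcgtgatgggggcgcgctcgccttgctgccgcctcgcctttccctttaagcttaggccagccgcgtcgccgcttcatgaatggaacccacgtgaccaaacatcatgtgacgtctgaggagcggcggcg
Mafk: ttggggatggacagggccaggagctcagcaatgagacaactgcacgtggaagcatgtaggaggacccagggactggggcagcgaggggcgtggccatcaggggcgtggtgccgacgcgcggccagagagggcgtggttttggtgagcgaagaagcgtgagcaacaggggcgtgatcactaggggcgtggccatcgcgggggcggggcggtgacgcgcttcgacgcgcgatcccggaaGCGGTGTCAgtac
Maff upstream window: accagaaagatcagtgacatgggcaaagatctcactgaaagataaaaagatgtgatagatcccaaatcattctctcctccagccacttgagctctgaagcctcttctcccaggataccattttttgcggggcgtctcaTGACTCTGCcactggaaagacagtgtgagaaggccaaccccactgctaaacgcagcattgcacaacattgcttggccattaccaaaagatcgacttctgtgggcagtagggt
Nfe2l1 upstream start: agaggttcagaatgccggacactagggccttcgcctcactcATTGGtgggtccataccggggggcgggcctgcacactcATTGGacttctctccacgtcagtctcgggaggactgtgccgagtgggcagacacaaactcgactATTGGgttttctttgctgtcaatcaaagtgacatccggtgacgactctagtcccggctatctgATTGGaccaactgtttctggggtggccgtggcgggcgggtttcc
Nfe2l1 downstream start: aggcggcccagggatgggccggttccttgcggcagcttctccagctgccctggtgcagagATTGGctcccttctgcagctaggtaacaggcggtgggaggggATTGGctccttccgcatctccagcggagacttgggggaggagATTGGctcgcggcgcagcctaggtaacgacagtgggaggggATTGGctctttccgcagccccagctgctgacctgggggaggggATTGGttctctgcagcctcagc

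Library totals were 32.3 to 54.7 M counts. Levels are counts scaled to the library total (CPM, with TMM factors), and all comparisons come from 1 edgeR quasi-likelihood model of 16460 genes, with Benjamini-Hochberg adjusted p-values called below 0.05. All 12 oligodendrocyte lineage markers passed the filter on low counts, with a summed level of 3020.8 to 37422.9 CPM, against 3.8 to 11.3 CPM for 8 microglial markers (Aif1, Cx3cr1, Csf1r, Tmem119, Itgam and Ptprc under 1 CPM on average) and 0.6 to 5.6 CPM for 8 endothelial, mural and fibroblast markers, 7 of them under 1 CPM on average. The 8 astrocyte markers summed to 162 to 725.2 CPM, with Gja1 under 1 CPM, and the 8 neuronal ones to 599.3 to 1609.1 CPM, with Rbfox3, Neurod6, Slc17a7, Gad1 and Gad2 under 1 CPM. In 3 libraries, replicate 2 of the untreated, IFN-γ and thapsigargin Nrf2 -/- groups at 8 h, the title says mutant and the genotype tag says wild type; the title was followed. The library labelled Nrf2 -/- untreated 8 h replicate 3 stands apart in Nfe2l2, as shown next. Xist, the X-inactivation RNA of female cells, was at 363.5 to 887 CPM in 20 of 30 Nrf2 -/- libraries and at most 11.8 CPM in all 20 wild-type libraries.

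Nfe2l2 (chromosome 2, 75675513 to 75704641, minus strand, GRCm38) checks the genotype labels. Nrf2 -/- libraries held 0.097 to 0.859 CPM of Nfe2l2 in 29 of 30 cases, and the remaining one, untreated 8 h replicate 3, held 7.62 CPM, while the 20 wild-type libraries held 5.12 to 70.4 CPM. That library therefore lies between the 2 wild-type untreated 8 h libraries at 5.12 and 10.1 CPM, and its 2 companions were at 0.213 and 0.178 CPM. The 3 libraries with conflicting labels held 0.178, 0.218 and 0.669 CPM, within the range of the other mutant libraries. Averaged over the 10 conditions, Nfe2l2 was lower in Nrf2 -/- cells, at a mean of 0.636 CPM against 22.1 CPM in wild-type cells, a log2 difference of -5.26 ± 0.22 (SE; adjusted p = 3.1e-17, edgeR). The difference was -4.82 in untreated cells, -6.10 with IFN-γ and -4.45 with thapsigargin, and it was called in 9 of the 10 single conditions. At 8 h untreated it was -1.52 (95% interval -2.63 to -0.40; adjusted p = 0.775), and without replicate 3 it was -5.27 (adjusted p = 1.18e-14). Why that library differs was not tested.

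**Figure D1:**
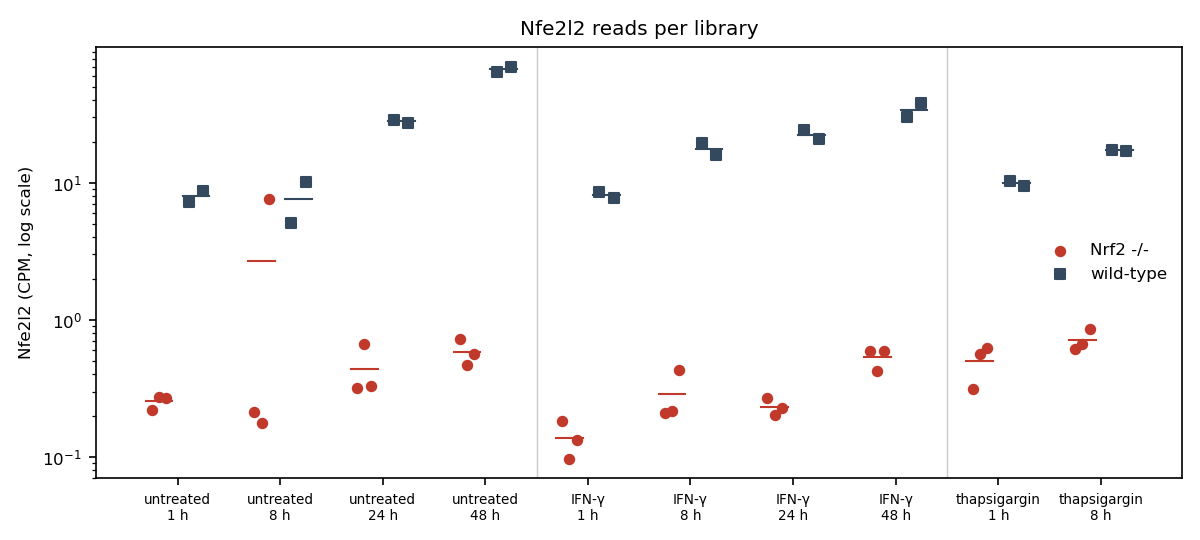
Nfe2l2 in CPM on a log axis for every library, by treatment and hour, with Nrf2 -/- libraries as circles left of wild-type libraries as squares and a line at each group mean. All mutant libraries but 1 lie below 1 CPM, and the exception is the 7.62 CPM circle at 8 h untreated.

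The transcript table holds kallisto estimated counts, and 67347 transcripts were tested. Nfe2l2-201, the 5-exon protein-coding transcript, was at 0.485 to 1.60 CPM in 29 Nrf2 -/- libraries, at 6.97 CPM in untreated 8 h replicate 3, and at 4.90 to 60.2 CPM in wild-type libraries. Its log2 difference was -3.79 ± 0.16 (SE; adjusted p = 4.59e-17, edgeR), and -4.00 without that library; 0.157% of all transcripts were called in the same comparison. The short Nfe2l2-202, a processed transcript with 2 exons, reached at most 0.187 CPM in Nrf2 -/- libraries and 0.431 CPM in wild-type libraries, and differed by -1.80 ± 0.35 (SE; adjusted p = 0.0183, edgeR). The remaining signal was thus larger on the transcript estimate than on the gene count, and the cause was not tested.

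Wild-type Nfe2l2 was higher at the later hours in culture, though each hour is also a separate run of sample numbers. Untreated wild-type cells had 64.8 and 70.4 CPM at 48 h, against 7.26 and 8.70 CPM at 1 h, a log2 difference of 3.08 ± 0.56 (SE; adjusted p = 2.21e-05, edgeR), and the groups did not overlap. The 8 h libraries, at 5.12 and 10.1 CPM, straddled those of 1 h, and the 24 h libraries lay between 1 and 48 h, at 28.7 and 27.5 CPM. Nfe2l2-201 followed, with 3.06 ± 0.56 on the log2 scale (SE; adjusted p = 9.88e-05, edgeR; 16.2% of transcripts were called). Oligodendrocyte lineage markers rose over the same hours, to a summed 35448.5 to 37422.9 CPM at 48 h against 7557.5 to 7903.5 CPM at 1 h in wild-type cells, and their part in the change was not tested. In bulk RNA, fewer cells of a type and less RNA per cell cannot be told apart.

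Under stress and cytokine wild-type Nfe2l2 lay above untreated cells at 8 h and below them at 48 h. These differences passed the test only when 1 mutant library was left out. The model takes 1 spread per gene from all groups, so that library enters the wild-type tests through the spread. The p-values with it thus also reflect the spread among the mutant libraries. With thapsigargin for 8 h wild-type cells had 17.3 and 17.2 CPM, against 5.12 and 10.1 CPM untreated, a log2 difference of 1.18 ± 0.55 (SE; adjusted p = 0.0692, edgeR). IFN-γ for 8 h gave 19.4 and 15.8 CPM against the same 2 untreated libraries, 1.20 ± 0.55 (SE; adjusted p = 0.112, edgeR). The groups did not overlap in either case, which says little with 2 libraries on each side. At 48 h the direction was opposite, with 30.1 and 38.3 CPM in IFN-γ against 64.8 and 70.4 CPM untreated, -0.98 ± 0.51 (SE; adjusted p = 0.124, edgeR). Without the library labelled Nrf2 -/- untreated 8 h replicate 3, a choice made after its value was seen, the same 3 differences had adjusted p-values of 1.12e-06, 2.28e-06 and 1.36e-05 (edgeR). The remaining 3 wild-type differences, 0.04 for IFN-γ at 1 h, -0.33 for IFN-γ at 24 h and 0.31 for thapsigargin at 1 h, were not called with or without it. The residual signal in Nrf2 -/- cells was called lower at 8 h with IFN-γ (-3.26; adjusted p = 0.00192, edgeR) and thapsigargin (-1.91; adjusted p = 0.0181, edgeR), and both values rest on that library: without it they were 0.49 (adjusted p = 0.557) and 1.84 (adjusted p = 0.00034).

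Of the 7 genes other than Nfe2l2, 1 differed between the genotypes on average. Over the 10 conditions Keap1 was slightly lower, at 63.6 CPM in Nrf2 -/- libraries and 67.9 CPM in wild-type libraries, a log2 difference of -0.09 ± 0.02 (SE; 95% interval -0.14 to -0.05; adjusted p = 0.0173, edgeR). It was lower in 9 of the 10 conditions, and higher with IFN-γ at 1 h. Of all genes, 468 or 2.84% were called in this comparison, and that count is not firm: it was 28 with a term for high Xist, 21 with a term for Xist above 100 CPM, 38 with the conflicting libraries taken as wild type and 246 without them. The other differences and their 95% intervals were -0.01 (-0.06 to 0.04) for Nfe2l1, -0.01 (-0.04 to 0.03) for Cul3, -0.03 (-0.07 to 0.01) for Bach1, -0.03 (-0.07 to 0.00) for Mafg, -0.05 (-0.12 to 0.02) for Mafk and -0.02 (-0.11 to 0.07) for Maff. None of these 6 was called, and the intervals give the differences that the data still allow, down to -0.12 for Mafk. The Keap1 call was lost with a term for high Xist (-0.07; adjusted p = 0.654) or for Xist above 100 CPM (-0.08; adjusted p = 0.758). In the first of these terms the wild-type library at 11.8 CPM was coded as high; in the second, Xist and genotype can be told apart only through the 10 Nrf2 -/- libraries with low Xist. It was also lost when the 3 libraries with conflicting labels counted as wild type (-0.08, adjusted p = 0.185, edgeR). The Nfe2l2 of these 3 libraries was in the mutant range, as given above. Keap1 was also not called when they were left out together with untreated 8 h replicate 3 (-0.09, adjusted p = 0.0542, edgeR).

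Within treatments none of the 8 genes but Nfe2l2 was called: averaged over the hours, the share of all genes called was 0.0243% in untreated cells, 0.0547% with IFN-γ and 0.51% with thapsigargin. In single conditions the shares were 0.00608%, 0%, 0.0182% and 0.0182% at 1, 8, 24 and 48 h untreated, 0.00608%, 0.00608%, 0.0425% and 0.122% at the same hours of IFN-γ, and 0.0304% and 0.0182% at 1 and 8 h of thapsigargin. At 8 h untreated, where edgeR called 0 genes, 740 genes had an unadjusted p below 0.05 and DESeq2 called 3. DESeq2 called more genes than edgeR in several other conditions, 224 against 20 at 48 h and 75 against 7 at 24 h of IFN-γ, 35 against 3 at 8 h of thapsigargin and 20 against 1 at 1 h untreated, with none of the 7 genes other than Nfe2l2 among them. Over all comparisons DESeq2 gave no adjusted p-value for 39 results of the 8 genes, and these count as not called. The thapsigargin average of 84 genes was 4 without the conflicting libraries. The widest single difference outside Nfe2l2 was Keap1 at 24 h of IFN-γ, with 63.4, 65.9 and 70.3 CPM in Nrf2 -/- libraries against 83.0 and 75.1 CPM in wild-type libraries, -0.25 ± 0.07 (SE; adjusted p = 0.216, edgeR). Those groups did not overlap, yet the difference did not pass the test. Cul3 lay the other way there, at 206.0, 228.3 and 232.3 CPM in Nrf2 -/- libraries against 189.3 and 201.5 CPM in wild-type libraries, 0.19 ± 0.06 (SE; adjusted p = 0.258, edgeR).

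**Figure D2:**
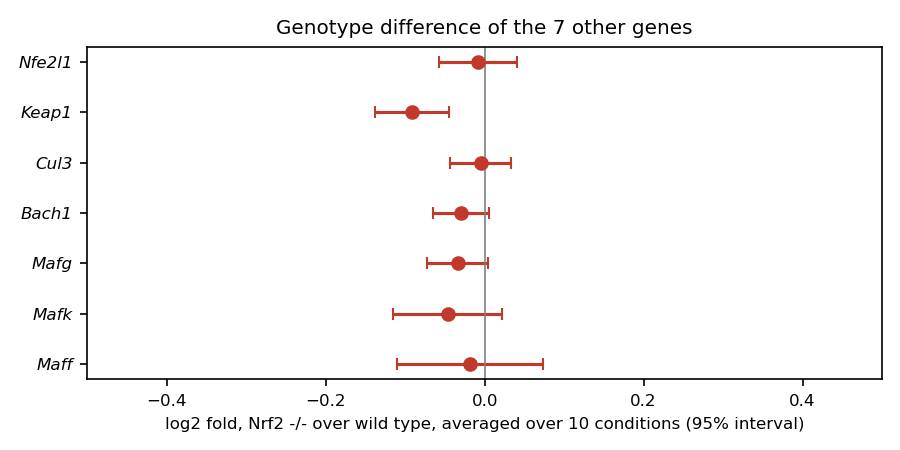
Log2 difference between Nrf2 -/- and wild-type cells averaged over 10 conditions, with 95% intervals, for the 7 genes other than Nfe2l2. Keap1 at -0.09 is the gene whose interval lies clear of 0.

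Levels per kilobase of exon allow the genes to be ordered. At 1 h untreated the order was the same in both genotypes: Cul3 was highest (40.5 CPM per kilobase in Nrf2 -/- and 40.96 in wild-type cells), then Nfe2l1 (26.3 and 27.03), Bach1 (18.5 and 18.7), Keap1 (11.3 and 11.9), Mafg (9.36 and 9.56), Mafk (3.52 and 3.75), Maff (3.22 and 3.16) and Nfe2l2 (0.067 and 2.10). Mafk and Maff libraries overlapped on this scale in Nrf2 -/- cells and the other neighbours did not. At 48 h untreated Bach1 had passed Nfe2l1 (33.8 and 33.1 against 30.2 and 26.4 CPM per kilobase in Nrf2 -/- and wild-type cells), and wild-type Nfe2l2, at 17.8 CPM per kilobase, overlapped Mafg at 17.2.

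**Figure D3:**
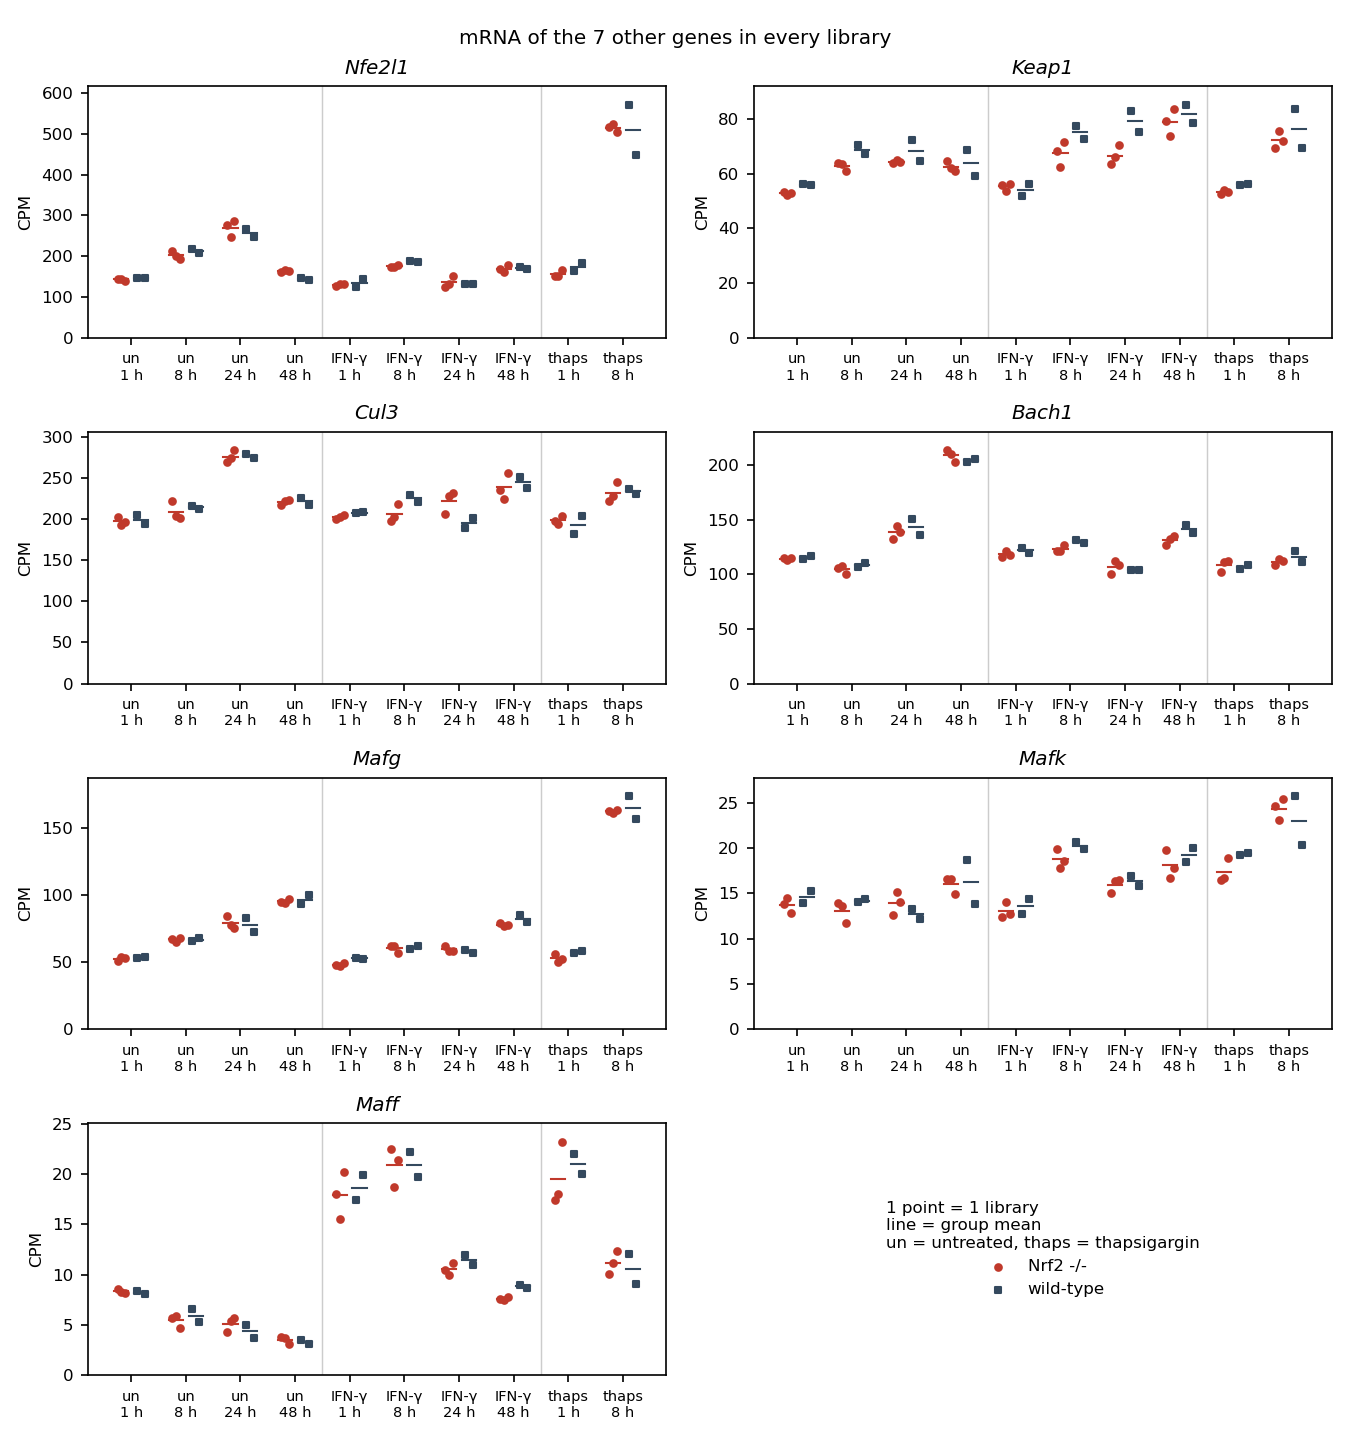
CPM of the 7 genes other than Nfe2l2 in every library, by treatment and hour, with Nrf2 -/- circles left of wild-type squares and a line at each group mean. Nfe2l1 and Mafg stand highest at 8 h of thapsigargin, Maff at 1 and 8 h of IFN-γ and 1 h of thapsigargin, and Bach1 at 48 h untreated, in both genotypes.

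Nfe2l1, whose protein senses the endoplasmic reticulum and the proteasome, had the widest swing of the 8 genes apart from Nfe2l2 itself and Maff. After 8 h of thapsigargin it reached 517.9, 522.9 and 505.3 CPM in Nrf2 -/- libraries, against 212.5, 201.2 and 194.1 CPM untreated. Wild-type libraries had 571.5 and 447.6 CPM with thapsigargin, against 218.5 and 207.3 CPM untreated. Treated and untreated libraries did not overlap in either genotype, and the log2 rise was 1.35 ± 0.07 in Nrf2 -/- and 1.26 ± 0.09 in wild-type cells (SE; adjusted p = 7.36e-20 and 5.49e-16, edgeR). IFN-γ at 24 h went the other way, with 125.5, 131.2 and 151.8 CPM against 275.4, 248.1 and 286.8 CPM untreated in Nrf2 -/- cells and 131.3 and 131.9 against 267.4 and 246.9 CPM untreated in wild-type cells. That difference was -0.99 ± 0.07 in Nrf2 -/- and -0.97 ± 0.09 in wild-type cells (SE; adjusted p = 2.08e-15 and 2.09e-12, edgeR). Untreated Nfe2l1 stood highest at 24 h, and the 24 h IFN-γ means lay near the untreated 1 h means. They were 136.2 against 142.9 CPM in Nrf2 -/- cells and 131.6 against 147.0 CPM in wild-type cells. The smaller values were uneven: at 8 h of IFN-γ -0.21 in Nrf2 -/- cells (called) and -0.18 in wild-type cells (not called), and at 48 h 0.05 in Nrf2 -/- cells (not called) and 0.25 in wild-type cells (called), with no difference between the genotypes called at either hour.

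The Nfe2l1 gene (chromosome 11, 96817414 to 96829968, minus strand) has 6 annotated transcripts that start upstream, among them the 5-exon Nfe2l1-201, and 6 that start downstream of the first exons, among them the 4-exon Nfe2l1-212. This grouping was made after the transcript values had been seen, and the shares are given without a test. With thapsigargin for 8 h the downstream starts held 47.3 to 50.8% of Nfe2l1 estimated counts in Nrf2 -/- libraries, against 14 to 20.7% untreated, and 48.8 to 52.3% in wild-type libraries, against 12.2 to 15.1% untreated. In absolute terms they were at 213.4 ± 18.1 CPM against 30.9 ± 4.5 CPM untreated in Nrf2 -/- cells (SD, n = 3 each) and at 213.3 ± 63.8 CPM against 25.6 ± 4.7 CPM untreated in wild-type cells (SD, n = 2 each). The upstream starts were at 218.2 CPM with thapsigargin against 143.3 CPM untreated in Nrf2 -/- cells, and at 206.0 against 161.4 CPM in wild-type cells. At 24 h of IFN-γ the downstream share was 1.9 to 4% against 15.5 to 20.4% untreated in Nrf2 -/- cells, and 1.5 to 2.8% against 12.7 to 16.4% untreated in wild-type cells. The downstream share was thus higher with thapsigargin and lower at 24 h of IFN-γ than in untreated cells of the same hour, with no overlap of libraries in either genotype. The sequence before the downstream start, shown above with its CCAAT boxes, is the one that belongs to Nfe2l1-212. That transcript was estimated at 0 to 100.2 CPM over the libraries. Nfe2l1-210, whose start at 96824013 has the window with 4 boxes, was estimated at 0 to 141.1 CPM. How well the estimates separate these transcripts was not tested.

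**Figure D4:**
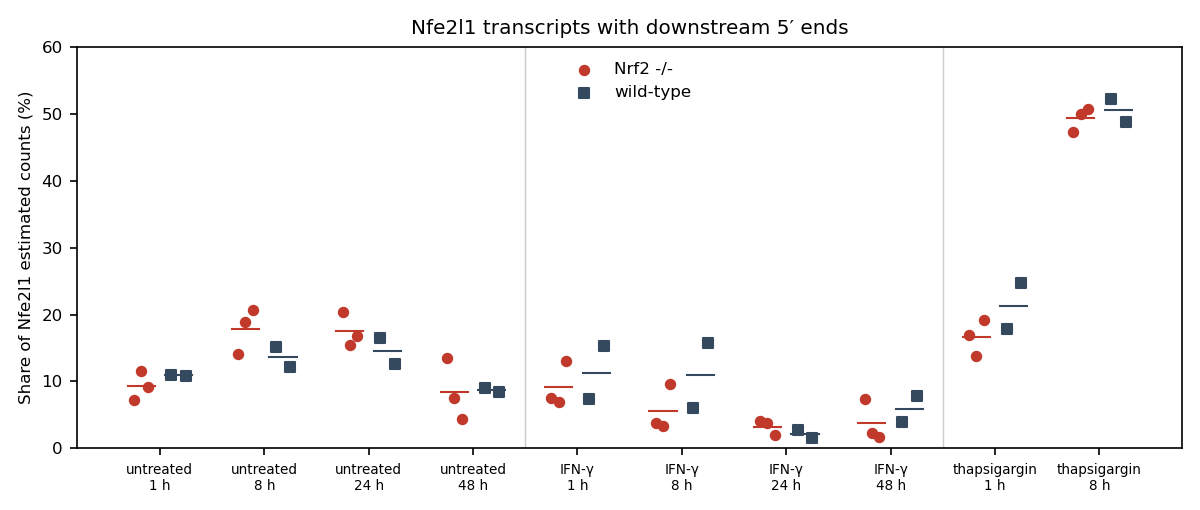
Share of Nfe2l1 estimated counts (percent) on transcripts with downstream starts in every library, by treatment and hour, with Nrf2 -/- circles left of wild-type squares and a line at each group mean. Both genotypes lie at 47.3 to 52.3% after 8 h of thapsigargin, and at 1.5 to 4% after 24 h of IFN-γ.

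Among the small MAF genes, Mafg also rose under thapsigargin. Mafg (chromosome 11, 120625117 to 120633600, minus strand) reached 162.9, 161.4 and 163.3 CPM at 8 h in Nrf2 -/- libraries, against 67.4, 65.0 and 68.4 CPM untreated, and 173.8 and 156.6 CPM in wild-type libraries, against 66.0 and 67.8 CPM untreated. All treated libraries were more than 2-fold above all untreated ones, and the log2 rise was 1.28 ± 0.05 in Nrf2 -/- and 1.30 ± 0.07 in wild-type cells (SE; adjusted p = 6.9e-23 and 5.34e-20, edgeR). At 24 h of IFN-γ it was lower than untreated by 0.41 in Nrf2 -/- and by 0.42 in wild-type cells on the log2 scale, and at 48 h by 0.29 and by 0.23, all called. From 1 to 48 h, Nrf2 -/- means rose from 48.2 to 78.1 CPM with IFN-γ and from 52.5 to 95.4 CPM untreated. Wild-type Mafg went from 52.8 to 82.5 CPM with IFN-γ and from 53.6 to 96.7 CPM untreated. Its annotated end overlaps Sirt7 on the same strand by 124 bases, so a few reads could belong to either gene.

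Maff, the small MAF gene best known for quick induction by cytokines and stress, was low. It lay above untreated cells of the same hour in every treatment and hour tested. At 8 h of IFN-γ it was at 22.5, 18.7 and 21.4 CPM in Nrf2 -/- libraries, against 5.67, 5.91 and 4.73 CPM untreated, and at 22.2 and 19.7 CPM in wild-type libraries, against 6.57 and 5.26 CPM untreated. The log2 rise was 1.94 ± 0.13 in Nrf2 -/- and 1.82 ± 0.16 in wild-type cells (SE; adjusted p = 3.93e-16 and 1.26e-12, edgeR). Already at 1 h IFN-γ gave 17.99, 15.6 and 20.2 CPM against 8.59, 8.28 and 8.16 CPM untreated in Nrf2 -/- cells, and 17.4 and 19.9 against 8.35 and 8.06 CPM untreated in wild-type cells. Thapsigargin at 1 h gave 17.4, 17.98 and 23.2 CPM in Nrf2 -/- and 22.004 and 19.995 CPM in wild-type libraries, against the same untreated libraries. In none of these did treated and untreated libraries overlap. With IFN-γ Maff was lower at 48 h than at 1 h, at means of 7.61 CPM in Nrf2 -/- and 8.83 CPM in wild-type cells. These lay near the untreated 1 h means of 8.34 and 8.20 CPM, and untreated cells had fallen to 3.52 and 3.26 CPM by 48 h. Over the 6 treatments and hours the log2 difference from untreated cells was 1.04 to 1.94 in Nrf2 -/- cells and 0.83 to 1.82 in wild-type cells. The lowest of them was 8 h of thapsigargin in wild-type cells.

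Mafk (chromosome 5, 139791513 to 139802653, plus strand) moved less. At 8 h of thapsigargin it was at 24.6, 23.05 and 25.3 CPM in Nrf2 -/- libraries, against 14.0, 13.6 and 11.7 CPM untreated, and at 25.7 and 20.3 CPM in wild-type libraries, against 14.0 and 14.4 CPM untreated. Treated libraries lay above untreated ones throughout, with a log2 rise of 0.90 ± 0.10 in Nrf2 -/- and 0.70 ± 0.12 in wild-type cells (SE; adjusted p = 1.24e-10 and 2.56e-06, edgeR). IFN-γ at 8 h raised it by 0.52 in Nrf2 -/- and 0.51 in wild-type cells on the log2 scale, both called, and thapsigargin at 1 h by 0.34 and 0.40. The gene's end overlaps Tmem184a on the opposite strand by 169 bases, and whether strand was used in counting is not given in the sources used here.

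Bach1 competes with NRF2 for the small MAF partners and is released from DNA by haem. It lay above untreated cells at 8 h of IFN-γ and below them later. At 8 h it was slightly higher, at 121.2, 121.6 and 126.8 CPM in Nrf2 -/- libraries against 105.3, 107.7 and 100.6 CPM untreated, and at 131.0 and 129.0 CPM in wild-type libraries against 106.8 and 110.1 CPM untreated. At 48 h it was lower, at 126.9, 132.4 and 134.8 CPM against 213.4, 210.0 and 203.1 CPM untreated in Nrf2 -/- cells, and at 145.4 and 137.5 against 203.0 and 205.5 CPM untreated in wild-type cells. Groups did not overlap at either hour; the log2 difference was 0.24 ± 0.05 in Nrf2 -/- and 0.26 ± 0.06 in wild-type cells at 8 h, and -0.67 ± 0.05 and -0.53 ± 0.06 at 48 h (SE). The 4 adjusted p-values were 0.000147, 0.00069, 7.53e-15 and 1.43e-09 in that order (edgeR). At 24 h Bach1 was lower than untreated by 0.37 in Nrf2 -/- and by 0.47 in wild-type cells on the log2 scale, both called. With IFN-γ the Nrf2 -/- means were 118.4, 123.2, 107.0 and 131.4 CPM at 1, 8, 24 and 48 h. Untreated they were 114.3, 104.5, 138.3 and 208.8 CPM. Wild-type means were 122.0, 130.0, 103.7 and 141.5 CPM, against 115.3, 108.4, 143.2 and 204.3 CPM untreated. At 48 h the level with IFN-γ was thus at its highest, and untreated cells had risen further. Thapsigargin moved it by -0.11 to 0.10, and none of the 4 values was called.

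Keap1 and Cul3, the 2 parts of the ligase that destroys NRF2, moved least. At 8 h of thapsigargin Keap1 averaged 72.2 against 62.7 CPM untreated in Nrf2 -/- and 76.4 against 68.7 CPM in wild-type cells. Cul3 averaged 231.7 against 209.3 CPM and 234.1 against 214.4 CPM in that order. Both rises were called in Nrf2 -/- cells and neither in wild-type cells. At 24 h of IFN-γ Keap1 was called higher in wild-type cells, at 79.1 against 68.4 CPM. In Nrf2 -/- cells, at 66.6 against 64.3 CPM, it was not called. Keap1 at 48 h of IFN-γ was at 79.3, 73.9 and 83.7 CPM in Nrf2 -/- libraries against 64.4, 62.1 and 60.8 CPM untreated, and at 85.2 and 78.6 CPM in wild-type libraries against 68.7 and 59.1 CPM untreated. This was a log2 rise of 0.34 ± 0.06 in Nrf2 -/- and 0.36 ± 0.08 in wild-type cells (SE; adjusted p = 3.15e-05 and 0.000299, edgeR), with no overlap of treated and untreated libraries. Cul3 at 24 h of IFN-γ was at 206.0, 228.3 and 232.3 CPM in Nrf2 -/- libraries against 269.4, 274.1 and 283.8 CPM untreated, and at 189.3 and 201.5 CPM in wild-type libraries against 279.5 and 274.1 CPM untreated. It was lower than untreated by 0.31 ± 0.05 in Nrf2 -/- and by 0.50 ± 0.07 in wild-type cells on the log2 scale (SE; adjusted p = 4.86e-06 and 3.11e-08, edgeR). Untreated Cul3 stood highest at 24 h. The 24 h IFN-γ means were 222.2 CPM in Nrf2 -/- and 195.4 CPM in wild-type cells, against untreated 1 h means of 197.5 and 199.6 CPM. Oligodendrocyte lineage markers were also lower at 24 h of IFN-γ, summing to 7149 to 8799.7 CPM against 19496.3 to 21503.2 CPM untreated in Nrf2 -/- cells and to 7947.6 to 9288.7 against 20719.4 to 23721.5 CPM untreated in wild-type cells, and at 8 h of thapsigargin they summed to 3180.1 to 3473.2 against 8863.4 to 9565.2 CPM untreated in Nrf2 -/- cells and to 3020.8 to 3538.9 against 10046.4 to 10288.7 CPM untreated in wild-type cells. At 48 h of IFN-γ they summed to 17111 to 19254.3 against 34305.8 to 36252.8 CPM untreated in Nrf2 -/- cells and to 20528.8 to 21253.8 against 35448.5 to 37422.9 CPM untreated in wild-type cells. Astrocyte markers at 8 h of thapsigargin summed to 169.3 to 179.8 against 506.8 to 554.1 CPM untreated in Nrf2 -/- cells and to 162 to 187 against 563.5 to 583.3 CPM untreated in wild-type cells. Neuronal markers were lower there too, at 821.3 to 888 against 1515.8 to 1609.1 CPM in Nrf2 -/- cells and 836.9 to 938.1 against 1529.6 to 1572.9 CPM in wild-type cells, and higher at 48 h of IFN-γ, at 926.7 to 1019.9 against 616.6 to 699.6 CPM in Nrf2 -/- cells and 859 to 953.5 against 599.3 to 622.9 CPM in wild-type cells. The part of these markers in the responses described here was not tested.

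**Figure D5:**
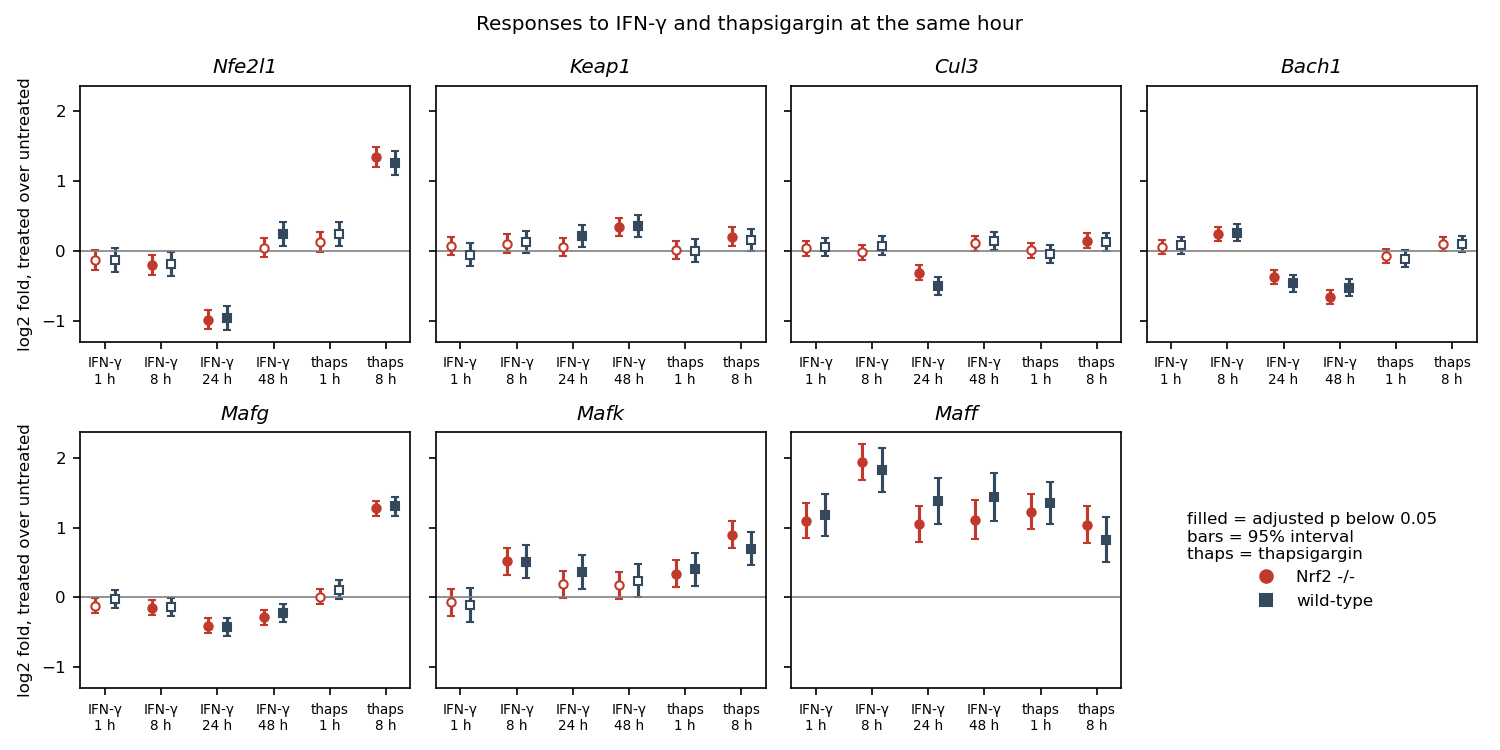
Log2 difference between treated and untreated cells at the same hour, with 95% intervals, for the 7 genes other than Nfe2l2; Nrf2 -/- circles lie left of wild-type squares and filled symbols are called. Nfe2l1 and Mafg peak at 8 h of thapsigargin, at 1.26 to 1.35, and Maff is above 0 throughout.

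Counted over the 8 genes and set beside the share of all genes called, IFN-γ called 1, 6, 5 and 4 genes at 1, 8, 24 and 48 h in Nrf2 -/- cells, where 2.21%, 30.7%, 47.3% and 45.4% of all genes were called, and 1, 3, 7 and 5 genes in wild-type cells, where the shares were 2.1%, 26.4%, 43.2% and 43.1%. One of the 6 genes at 8 h in Nrf2 -/- cells is Nfe2l2, whose value rests on 1 library. Thapsigargin called 2 and 7 genes at 1 and 8 h in Nrf2 -/- cells, with 9.29% and 60% of all genes, the 7 again with Nfe2l2, and 2 and 4 genes in wild-type cells, with 9.03% and 55.5%. Since a large share of all genes were called at the later hours, counts over 8 genes are given as a description.

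Most of them differed between the hours in untreated cells. Each hour is also a separate run of consecutive sample numbers. Time could not be told apart from any processing block that goes with those numbers. Between 48 h and 1 h, 7 of the 8 genes were called in Nrf2 -/- cells, where 61.6% of all genes were, and 6 in wild-type cells, where 54.7% were. Bach1 was at 213.4, 210.0 and 203.1 CPM at 48 h against 115.3, 112.8 and 114.7 CPM at 1 h in Nrf2 -/- cells, and at 203.0 and 205.5 against 114.2 and 116.4 CPM in wild-type cells, a log2 rise of 0.87 ± 0.05 and 0.82 ± 0.06 (SE; adjusted p = 1.05e-18 and 4.57e-15, edgeR). Mafg rose by 0.86 in Nrf2 -/- and 0.85 in wild-type cells on the same scale. Maff went the other way, at 3.77, 3.73 and 3.07 CPM at 48 h against 8.59, 8.28 and 8.16 CPM at 1 h in Nrf2 -/- cells, and at 3.48 and 3.05 against 8.35 and 8.06 CPM in wild-type cells. It fell by 1.25 ± 0.14 in Nrf2 -/- and by 1.33 ± 0.17 in wild-type cells on the log2 scale (SE; adjusted p = 3.09e-10 and 1.12e-08, edgeR). Keap1, Cul3, Mafk and Nfe2l1 lay at -0.03 to 0.24 on the log2 scale. The Mafk and Nfe2l1 values were not called in wild-type cells. These end points hide a peak of Nfe2l1 and Cul3 at 24 h. At 1, 24 and 48 h Nfe2l1 means were 142.9, 270.1 and 164.3 CPM in Nrf2 -/- cells and 147.0, 257.1 and 143.7 CPM in wild-type cells. Cul3 means were 197.5, 275.8 and 221.2 CPM in Nrf2 -/- cells and 199.6, 276.8 and 221.8 CPM in wild-type cells. For none of the 16460 genes (0%) was the change with time called different between the genotypes by edgeR, where 1200 had an unadjusted p below 0.05 and DESeq2 called 14.

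The responses of the 8 genes to either agent were not called different between the genotypes. edgeR called 0 of all genes (0%) in each of the 6 comparisons of responses, where 486, 427, 1237 and 1366 genes had an unadjusted p below 0.05 for IFN-γ at 1, 8, 24 and 48 h and 335 and 1376 for thapsigargin at 1 and 8 h. DESeq2 called 1, 2, 13 and 5 genes for IFN-γ and 1 and 2 for thapsigargin, none of them one of the 7 genes other than Nfe2l2. As above, results without a DESeq2 adjusted p-value count as not called. For the strongest responses the difference, Nrf2 -/- minus wild type, was 0.09 (95% interval -0.13 to 0.31) for Nfe2l1 and -0.02 (-0.19 to 0.15) for Mafg at 8 h of thapsigargin, and -0.02 (-0.24 to 0.20) for Nfe2l1 at 24 h of IFN-γ. Maff differed by -0.33 (-0.76 to 0.09) at 24 h and by -0.32 (-0.77 to 0.12) at 48 h of IFN-γ. Intervals of this width leave room for moderate differences.

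Genes that act on or through these 8 were taken as 6 lists. Genotype called 1 gene in each of 3 lists, all lower in Nrf2 -/- cells: Sqstm1 (p62, which ties up KEAP1) by -0.11 ± 0.03, the NRF relative Nfe2l3 by -0.20 ± 0.05 and the NRF2 target Me1 (malic enzyme) by -0.12 ± 0.03 (log2, SE; adjusted p = 0.0224, 0.0242 and 0.0158, edgeR), where 2.84% of all genes were called. All 3 calls were lost with either Xist term and with the conflicting libraries taken as wild type. The calls of Sqstm1 and Me1 were also lost without these libraries, whose Nfe2l2 was in the mutant range. None of the other 21 tested targets among 24 NRF2 targets was called; Osgin1 and Gsta4 did not pass the filter. List medians were -0.046 to -0.012, against 0.003 over all genes. The list values that follow are log2 differences from untreated cells of the same hour, Nrf2 -/- before wild type, called by edgeR unless said otherwise, with SE from 0.047 (Usp15) to 0.550 (Maf).

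At 8 h of thapsigargin, where 60% of all genes were called in Nrf2 -/- cells (5002 rose and 4866 fell) and 55.5% in wild-type cells (4678 rose and 4458 fell), the 32 proteasome genes, targets of NRF1, were mostly lower while Nfe2l1 itself was higher: 0 rose and 23 fell in Nrf2 -/- cells (median -0.28, against 0 over all genes) and 0 rose and 27 fell in wild-type cells (median -0.42, against 0.02). Psma2, a core subunit, fell by 0.69 in Nrf2 -/- and by 0.86 in wild-type cells on the log2 scale, the regulatory subunit Psmd1 by 0.63 and 0.68, and the assembly factor Pomp by 0.58 and 0.81. Of the 11 genes that process NRF1, 6 rose and 0 fell in Nrf2 -/- cells and 7 rose and 1 fell in wild-type cells; the number called in Nrf2 -/- cells is near the share of all genes. The degradation adaptor Sel1l rose by 3.19 and 3.37, and the shuttle Rad23b by 0.49 and 0.29. Ogt, which adds sugar to NRF1, was at -0.08 in Nrf2 -/- cells (not called) and rose by 0.38 in wild-type cells, and the de-glycosylating Ngly1 was at -0.01 (not called) and fell by 0.18.

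Under the same treatment 5 of 18 NRF2 turnover genes rose and 7 fell in Nrf2 -/- cells, and 4 rose and 8 fell in wild-type cells, near the 60% and 55.5% of all genes called, so the counts are no result about this list. Syvn1, a ligase of the endoplasmic reticulum that can destroy NRF2, rose by 2.90 in Nrf2 -/- and 3.06 in wild-type cells, and Sqstm1 by 1.00 and 0.83. Palb2, a KEAP1 binder, fell by 1.23 and by 1.37, and the ligase subunit Skp1a by 0.94 and by 1.06. Of 19 partners and kinases, 8 rose and 6 fell in Nrf2 -/- cells and 11 rose and 6 fell in wild-type cells, led by the stress factors Atf3 (6.44 and 6.33) and Atf4 (2.19 and 1.98), with the chromatin remodeller Smarca4 (-0.86 and -0.80) and the kinase Cdk5 (-0.74 and -0.83) lowest. Among the relatives, 4 of 7 of which were tested, Maf rose by 2.52 in both genotypes and Bach2 by 1.15 and 2.14, while Nfe2l3 fell (-4.19 and -4.304).

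Of 22 NRF2 targets, 7 rose and 10 fell with 8 h of thapsigargin in Nrf2 -/- cells (median -0.13), and 7 rose and 10 fell in wild-type cells (median -0.20), beside the same 60% and 55.5% of all genes. Hmox1, the haem oxygenase that BACH1 represses, was at 74.5 ± 5.7 CPM against 8.32 ± 0.76 CPM untreated in Nrf2 -/- cells (SD, n = 3 each) and at 66.2 ± 12.0 against 7.93 ± 0.47 CPM untreated in wild-type cells (SD, n = 2 each). The cystine carrier Slc7a11, also an ATF4 target, was at 163.7 ± 9.9 CPM against 0.14 ± 0.09 CPM untreated in Nrf2 -/- cells (SD, n = 3 each) and at 182.8 ± 10.8 against 0.13 ± 0.03 CPM untreated in wild-type cells (SD, n = 2 each). Treated libraries of both genes were higher in either genotype; the untreated Nrf2 -/- group includes the library with 7.62 CPM of Nfe2l2. The pentose phosphate enzyme Taldo1 (-1.076 and -1.223) and the peroxidase Prdx1 (-0.98 and -1.02) fell.

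At 48 h of IFN-γ, where 45.4% of all genes were called in Nrf2 -/- and 43.1% in wild-type cells, the proteasome genes lay the other way, with 20 of 32 higher and 0 lower in Nrf2 -/- cells (median 0.21, against -0.01 over all genes) and 24 higher and 0 lower in wild-type cells (median 0.35, against -0.02). The named subunits are Psmb5 (0.61 in Nrf2 -/- and 0.72 in wild-type cells), Psma4 (0.57 and 0.74) and Psma5 (0.50 and 0.79). Nfe2l1 at this hour was at 169.1, 160.9 and 178.9 CPM with IFN-γ against 162.4, 165.5 and 164.9 CPM untreated in Nrf2 -/- cells, a log2 difference of 0.05 that was not called, and at 172.7 and 168.3 against 145.5 and 141.9 CPM untreated in wild-type cells, a called rise of 0.25 ± 0.09 (SE; adjusted p = 0.017, edgeR). The large MAF gene Maf fell by 4.28 in Nrf2 -/- and by 4.44 in wild-type cells, and Bach2 by 1.71 and by 1.95. NRF2 targets were divided, with 5 higher and 7 lower in Nrf2 -/- cells and 6 higher and 5 lower in wild-type cells. At 24 h of IFN-γ 47.3% of all genes were called in Nrf2 -/- and 43.2% in wild-type cells, and several list counts lie near those shares. There 5 targets were higher and 12 lower in Nrf2 -/- cells, and 4 higher and 8 lower in wild-type cells; Slc7a11 rose by 2.70 and 2.46 and the biliverdin reductase Blvrb by 0.99 and 0.94, while Me1 fell by 1.81 and by 1.60 and Taldo1 by 1.07 and by 0.88. Of the partners, 2 rose and 6 fell in Nrf2 -/- cells and 3 rose and 7 fell in wild-type cells, among them Jun (3.68 and 4.03), which can join NRF2 at its sites, Atf3 (2.11 and 2.37), the kinase Fyn (-1.30 and -1.22) and Atf4 (-0.72 and -0.60). Of the NRF1 processing genes 0 rose and 5 fell in either genotype, led by the deubiquitinase Usp15 (-0.37 and -0.49) and the segregase Vcp (-0.45 and -0.41). Of the turnover genes 2 rose and 8 fell in Nrf2 -/- cells and 2 rose and 4 fell in wild-type cells, and of the proteasome genes 3 rose and 4 fell, against 5 and 2 in wild-type cells.

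By the correlation of log2 group means over the 20 groups, among 12554 genes at 1 CPM or more, the genes most like Nfe2l1 were Tmem41b (r = 0.972) and Canx (0.969), and the genes most like Mafg were Ppp1r15b (0.982) and Necap2 (0.980). Maff lay nearest Nfkbiz (0.941) and Zfp202 (0.928), Mafk nearest Atf3 (0.914) and Trpc1 (0.895), Bach1 nearest Socs6 (0.960) and Ctns (0.954), Keap1 nearest Pbx2 (0.903) and Map2k1 (0.896), and Cul3 nearest Ugcg (0.922) and Hspa4 (0.914). Over the 10 wild-type groups Nfe2l2 lay nearest Gm45768 (0.978) and Lrrc8c (0.967). The groups share hours, agents and libraries, so these values are descriptions.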

How the data were processed

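RNA-seq of 50 libraries was analysed from 2 deposited tables: raw counts per gene and kallisto estimated counts per transcript. The authors used STAR, featureCounts, kallisto and edgeR, per the submitters' processing notes; the sources used here give no versions, genome build, annotation or strand setting. Gene IDs were matched to GENCODE M21 for positions (38872 of 39056). Counts were filtered (filterByExpr, minimum count 10, minimum total 15), scaled by TMM and fitted with edgeR 4.0.16 (quasi-likelihood, robust) in R 4.3.3 with limma 3.58.1, 1 mean for each of 20 groups, giving 35 comparisons. P-values were adjusted by Benjamini-Hochberg over all genes of a comparison and called below 0.05. Deposited estimated counts were rounded to whole numbers and fitted in the same way; 67347 of 112588 transcripts were tested, from 39.5 to 64.1 M per library. The fitting was tested on simulated data. DESeq2 1.42.0, other scaling, no filter, kallisto sums per gene, terms for Xist and leaving out libraries were alternatives. Figures were drawn with Python 3.11.15 and matplotlib 3.10.9.

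The genes named are the 8 described, from each list the 2 called genes with the largest positive and the 2 with the largest negative log2 difference in a comparison (the text gives those of the main comparisons), and the 2 genes of highest correlation, on log2 of mean CPM plus 0.5. The genes and lists were chosen with earlier results of these data known. Whether replicates came from separate cultures is not stated in the labels, so p-values reflect only how much these libraries vary, which may be technical. Replicate numbers were given in accession order and were not used to pair libraries. The sample numbers run in sets of 1 genotype and hour, with 1 library per treatment. The labels do not say whether a set shares a culture. The model treats all libraries as independent, which those of a set may not be. Of 4 promoter motifs searched, 1 is not reported here.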

Additional observations from a re-analysis of the deposited data

How the results depend on the processing

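No paired analysis was possible because the labels carry no replicate numbers. Of the 7 genes other than Nfe2l2, the count called by genotype averaged over conditions was 1 (Keap1) under other scaling, DESeq2, no filter and kallisto sums, and 0 when the conflicting libraries were taken as wild type or with a term for high Xist; it was also 0 under 2 settings chosen after seeing the data, a term for Xist above 100 CPM and leaving out the conflicting libraries with Nrf2 -/- untreated 8 h replicate 3. Leaving out 1 library at a time gave 1 to 1. Over all genes that comparison called 468, and 21 to 618 under the alternatives. Counts called were 0 throughout for genotype within conditions and for differences in response, 41 to 45 for treatment (45 as reported; 43 to 46 leaving out 1 library) and 9 to 12 for time (12 as reported; 10 to 12 leaving out 1 library). The averaged Nfe2l2 difference was -5.63 to -5.20 leaving out 1 library and -3.73 with kallisto sums. Residual Nfe2l2 in Nrf2 -/- cells at 8 h turned positive without replicate 3 of the untreated group, to 0.487 with IFN-γ and 1.841 with thapsigargin, and to 0.527 and 1.759 when the conflicting libraries were left out too; leaving out replicate 2 instead gave -3.818 and -2.464. Taking the conflicting libraries as wild type also ended Nfe2l2 calls in 6 single conditions, at -5.980 to -4.006. Their own Nfe2l2 was in the mutant range. Leaving out 1 library ended the calls at 1 h untreated or with thapsigargin, at -5.010 to -4.046. Calls near the threshold were lost under some settings, and the cause was not tested: Keap1 with time, with thapsigargin at 8 h and with IFN-γ at 24 h, Cul3 with time and thapsigargin, Mafk at 1 h of thapsigargin, and the smaller Nfe2l1 and Mafg changes with IFN-γ. With 2 libraries in each wild-type group, small differences between single groups could be missed. The same holds for Nfe2l2 in mutant cells, which was under 1 CPM in all but 1 library.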
